A study of Homo sapiens with 2 samples.

Results

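Subtelomeric E2F1 peaks are the called binding sites that lie close to the tips of the chromosomes. E2F1 is a transcription factor that switches on genes for S phase entry and DNA replication, and it was mapped by chromatin immunoprecipitation and sequencing (ChIP-seq) in LNCaP-abl cells, prostate cancer cells derived from the LNCaP line that grow without androgen. A peak of chromosomes 1 to 22 was counted when its midpoint was at most 2 Mb from the outermost peak of its chromosome. Tips of the long arms (q ends) were used on all 22 chromosomes, and tips of the short arms (p ends) on the 17 that are not acrocentric, since the short arms of chromosomes 13, 14, 15, 21 and 22 are repeat arrays. This gave 1898 peaks at 39 ends, or 6.75% of the 28108 peaks on these chromosomes (28734 in the whole list). The choice used positions only, and scores and widths played no part in it.

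The series has 2 samples, 1 immunoprecipitation with a pair of E2F1 antibodies and 1 input without antibody, both from LNCaP-abl cells at passages 61 to 64 kept for 3 days in medium depleted of androgen. The peak list of the immunoprecipitation is the only data analysed. With 1 library there is no replicate and no test across samples, so intervals below cover counting error only and treat peaks as independent, which neighbouring peaks are not. Read depth is unknown because the list has no read counts, and the authors' score is used only to rank peaks within the list. Base sequence under the peaks was not analysed here.

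Human chromosome tips end in telomeric repeats. Next to these lie blocks of duplicated sequence shared between chromosomes, and further in comes unique DNA that at many tips is rich in genes, in G and C bases and in CpG islands. E2F1 is best known at promoters of dividing cells, many of which are CpG islands. Reads from duplicated blocks cannot always be placed on 1 chromosome, so a short-read peak list can be thin in the outermost DNA. The term subtelomeric here means near the outermost peak, not a measured distance to the telomere. At the 17 p ends, where hg19 positions count from the tip, the first peak began at a median position of 182144, from 11538 on chromosome 18 and 11766 on chromosome 2 to 713860 on chromosome 1.

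E2F1 peaks were over 2 times denser at the ends than elsewhere on the same chromosomes. The end windows held 24.3 peaks per Mb (95% Poisson interval 23.3 to 25.5) and the other 2711 Mb held 9.67 (9.55 to 9.79), a ratio of 2.52 (exact 95% interval 2.401 to 2.64). Each chromosome gives windows of the same size, so small dense chromosomes weigh more in the windows than in the rest. With each chromosome held to its own density, 825 peaks were expected in the windows and the 1898 found were 2.30 times that number (2.20 to 2.41). The ends made up 2.80% of the length between outermost peaks and peaks covered 1.35% of their bases, against 0.489% of the rest.

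The excess was seen on every autosome, though its size varied. All 22 chromosomes had a higher density at their ends than in their remaining length, and for 19 of them the 95% interval of the ratio lay above 1. The ratio was highest on chromosome 13, at 4.16 (2.92 to 5.78), followed by chromosome 16 at 3.96 (3.36 to 4.64) and chromosome 8 at 3.94 (3.26 to 4.73). It was lowest on chromosome 6 at 1.28 (0.941 to 1.70), chromosome 3 at 1.36 (0.992 to 1.81) and chromosome 15 at 1.38 (0.945 to 1.95), the 3 whose intervals reached below 1. Chromosome 19, the densest autosome, had a ratio of 1.97 (1.68 to 2.29).

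Density fell with distance from the end and did not drop at the 2 Mb limit alone. It was 26.5 peaks per Mb (24.9 to 28.1) in the outermost 1 Mb and 22.2 (20.8 to 23.7) in the next. Beyond the limit it was 15.8 (14.6 to 17.1) from 2 to 3 Mb, 14.2 (13.3 to 15.03) from 3 to 5 Mb, 12.04 (11.6 to 12.5) from 5 to 10 Mb and 11.03 (10.7 to 11.4) from 10 to 20 Mb. Further in than 20 Mb it was 8.88 (8.75 to 9.01). In steps of 250 kb the highest value was that of the first step, 29.7 (26.4 to 33.4), which holds the peaks that define the ends by construction. The 2 steps on either side of the limit gave 17.9 (15.4 to 20.8) inside and 17.2 (14.7 to 20.04) outside.

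**Figure D1:**
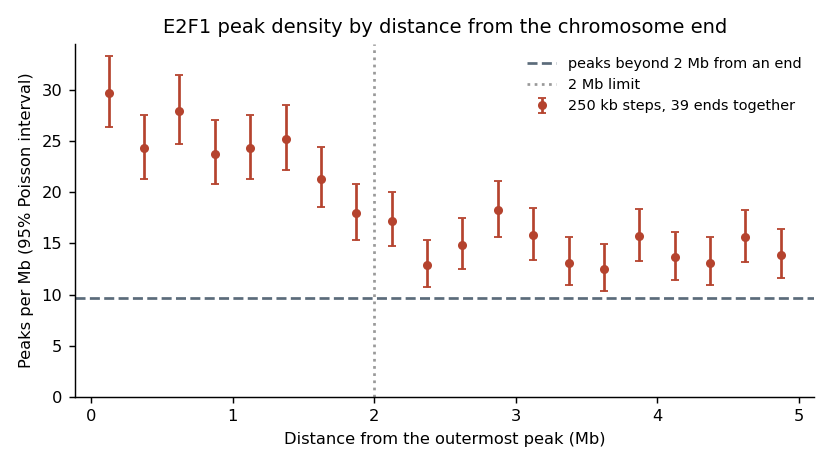
E2F1 peaks per Mb (vertical axis, 95% Poisson intervals) in steps of 250 kb by distance from the outermost peak in Mb, with the 39 ends pooled; the dashed line is the density beyond 2 Mb from any end. Values fall from 29.7 in the first step to 17.9 in the last step before 2 Mb, and stay above the dashed line at 9.67 out to 5 Mb.

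Peaks just inside the limit were at 5p from 2038587 to 2038975 (score 22.6), at 14q from 105281817 to 105282781 (108.7) and at 3q from 195808347 to 195809493 (131.4). Positions are 1-based, in build hg19. Just outside were a peak at 16p from 2104833 to 2105163 (score 10.7) and a pair at 19p, from 2268978 to 2269825 (95.02) and from 2270783 to 2270982 (7.58). The limit therefore cuts through dense stretches of 16p and 19p.

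The 39 ends differed widely among themselves. An end held a median of 44 peaks, with quartiles of 24 and 66 and a range from 3 to 123, and 11 ends held more than 50% of all subtelomeric peaks. In 33 of 39 ends the density was above that of the whole chromosome, against 41.8% of all 2 Mb windows on these chromosomes. Relative to the rest of its chromosome, the interval lay above 1 at 28 ends and below 1 at 1. When each chromosome was cut into 2 Mb windows from that end, 9 ends were the densest window of their chromosome and 19 were in the top 10% of its windows by rank, where 9.75% of all windows fall. A chromosome has only 1 densest window unless counts tie, and there were 1385 windows over all chromosomes. On the other side, 4 ends ranked below the middle of their windows. Compared with the adjoining 2 Mb, 30 ends held more peaks and 9 held fewer, with 1174 peaks in the adjoining windows together. Neither this count nor that of intervals above or below 1 was made for windows away from the ends, so both lack a background.

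The densest end was 19p, with 123 peaks or 61.5 per Mb (51.1 to 73.4). Next came 16p with 108 (54.0 per Mb, 44.3 to 65.2), the gene-dense tip that carries the alpha-globin cluster, and 17q with 105 (52.5, 42.9 to 63.6). The end of 1p held 99 (49.5, 40.2 to 60.3) and that of 8q held 97 (48.5, 39.3 to 59.2). Each of these 5 was the densest window of its chromosome. Against the rest of their own chromosomes the order changed, because chromosome 19 is dense throughout. The fold was 5.92 (4.76 to 7.29) at 8q, 4.65 (3.77 to 5.67) at 16p, 4.26 (3.45 to 5.20) at 1p, 2.78 (2.26 to 3.39) at 17q and 2.52 (2.08 to 3.03) at 19p. This order is among these 5 only, and 9q, with 84 peaks, reached 5.85 (4.63 to 7.32). The intervals of 8q, 16p and 1p overlap each other, and those of 17q and 19p overlap each other. In the GRCh38.p14 gene table, used for order only, the outermost protein-coding gene of 17q is METRNL, and C8orf33 and ZNF16, a zinc finger gene, lie outermost on 8q.

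The sparsest end was 3p, with 3 peaks in 2 Mb, and it was the only end whose density was lower than the rest of its chromosome beyond counting error (0.17-fold, 0.036 to 0.507). Its outermost peak, from 398754 to 398994, scored 7.17, and a stretch of 1.74 Mb without a peak followed. The other 2 lay from 2140086 to 2140616 (score 40.8) and from 2198030 to 2198231 (7.61). The end of 4q held 7 peaks (0.55-fold, 0.220 to 1.14). It is known for D4Z4, an array of repeats that carries the germline transcription factor gene DUX4, and DUX4, FRG2 and FRG1 are its outermost genes in the GRCh38.p14 table. Its 7 scores ran from 4.81 to 37.1 apart from 1 peak of 196.8, from 190861478 to 190862377. The end of 9p held 10 peaks (0.70-fold, 0.333 to 1.29), that of 2p held 16 (0.98-fold, 0.559 to 1.59), and those of 7q (1.06-fold, 0.625 to 1.68) and 18p (1.72-fold, 1.01 to 2.75) held 18 each. Duplicated sequence, gaps in the assembly and gene content at these ends were not analysed here.

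Both ends of 1 chromosome were often unlike. The counts below were not made for pairs of windows away from the ends, so they lack a background. Of the 17 chromosomes with 2 ends, 11 were above their own density at both, 10 had more peaks at the q end and 7 at the p end. On 8 of them the fuller end held at least 3 times as many peaks as the other: 99 at 1p and 19 at 1q, 16 at 2p and 51 at 2q, 3 at 3p and 44 at 3q, 52 at 4p and 7 at 4q, 57 at 7p and 18 at 7q, 32 at 8p and 97 at 8q, 10 at 9p and 84 at 9q, and 70 at 11p and 21 at 11q. Short and long arms overlapped in their intervals, at 24.7 peaks per Mb (23.1 to 26.4) over 17 p ends and 24.05 (22.6 to 25.5) over 22 q ends.

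**Figure D2:**
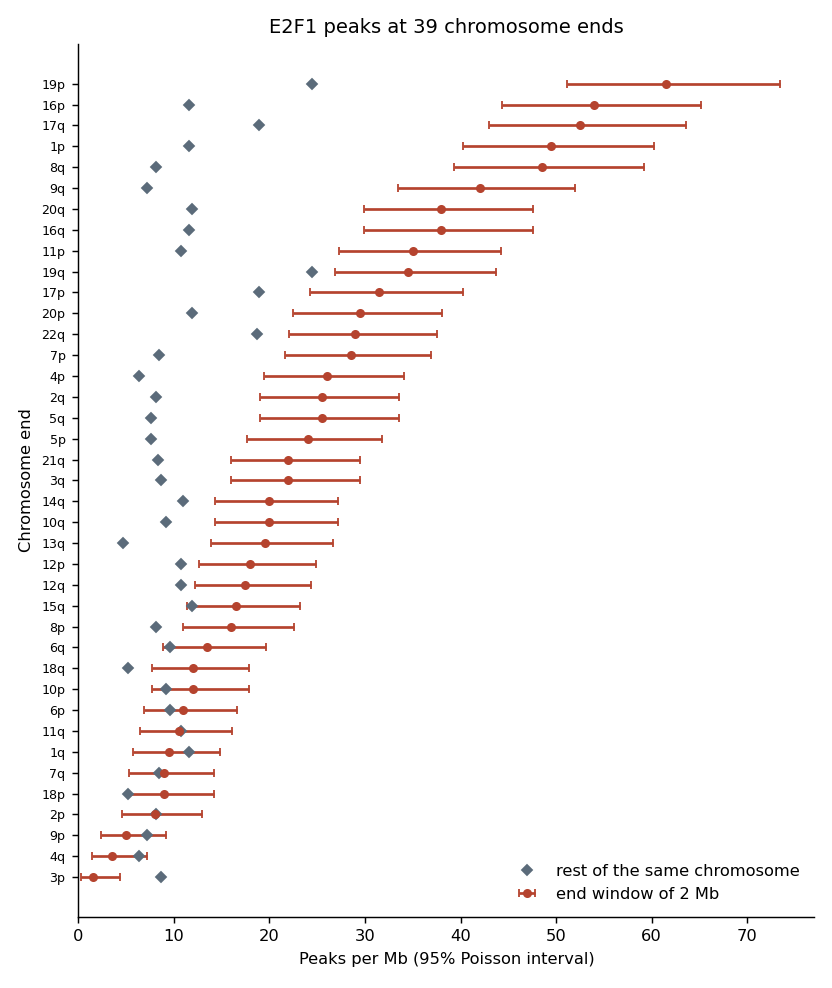
E2F1 peaks per Mb (horizontal axis) in the 2 Mb window of each of 39 chromosome ends (circles, 95% Poisson intervals) and in the rest of the same chromosome (diamonds), ordered by number of peaks. Ends run from 1.5 per Mb at 3p to 61.5 at 19p, and most circles lie to the right of their diamond.

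Scores of subtelomeric peaks were shifted away from the weakest class, but not towards the strongest. The median score was 29.9 (order-statistic 95% interval 27.9 to 31.8) at the ends and 22.98 (22.4 to 23.5) elsewhere, with quartiles of 12.4 and 64.7 against 9.82 and 60.5. A score below 10 was found in 18.7% of subtelomeric peaks (exact 95% interval 16.9 to 20.5%) and in 25.5% of the others (24.96 to 26.02%), with 25% over all autosomal peaks. A score from 40 to 80 was found in 23.6% (21.7 to 25.6%) and 18.7% (18.2 to 19.1%), with 19% over all. In the top 10% of autosomal peaks, at a score of at least 110.0, the shares were 9.75% (8.45 to 11.2%) and 10.02% (9.66 to 10.4%), beside 10% over all. At 200 or more they were 1.58% (1.07 to 2.25%) and 1.92% (1.76 to 2.09%). The sets thus differed by more than counting error below 10 and between 40 and 80, and not in either high class. The classes below 10, from 40 to 80 and at 200 or more were not among the planned comparisons.

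**Figure D3:**
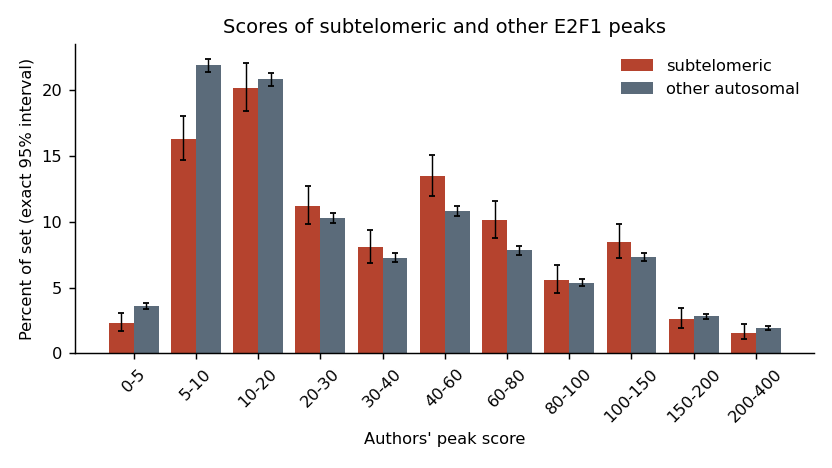
Percent of subtelomeric (red) and other autosomal (grey) E2F1 peaks in classes of the authors' score, with exact 95% intervals. Subtelomeric peaks are fewer from 5 to 10 (16.3 against 21.9%) and more frequent from 40 to 60 (13.5 against 10.8%), while the bars above 150 overlap in their intervals.

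By chromosome, the median score at the ends was above that of the rest on 17 of 22 and below it on chromosomes 7, 15, 16, 21 and 22. The top 10% share was higher at the ends on 11 chromosomes and lower on 11. Among single ends with at least 10 peaks, the highest medians were at 12q (58.0, 35 peaks), 1q (53.9, 19 peaks) and 3q (48.8, 44 peaks). The lowest were at 2p (12.5, 16 peaks), 7q (13.8, 18 peaks) and 7p (16.5, 57 peaks). A high density therefore did not go with a high score at every end: 1q was no denser than the rest of its chromosome (0.82-fold, 0.491 to 1.28) and among the highest in score, whereas 7p was the second densest of the 79 windows of chromosome 7 and among the lowest in score.

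The strongest subtelomeric peak scored 265.0 and ranked 92nd among autosomal peaks, so 91 peaks elsewhere exceeded all 1898. It lay at 13q from 114301760 to 114302453, which is 803495 bp from the end of the outermost peak of that arm. In the GRCh38.p14 table CHAMP1, UPF3A and CDC16 are the outermost genes of 13q. The distance of the peak from any gene was not analysed here. The next were at 17q from 79818186 to 79819158 (255.3), at 11q from 134093531 to 134094500 (253.1), at 7q from 158497136 to 158497965 (246.0) and at 22q from 50945928 to 50947078 (237.1). The sixth to eighth were at 16q from 89882677 to 89883596 (226.9), 2q from 242625704 to 242626805 (223.3) and 12p from 1329208 to 1329742 (221.2). Another pair completed the 10, at 17q from 79196490 to 79197281 (220.7) and at 16q from 90143622 to 90144191 (215.0). That last site was 4787 bp from the end of the outermost peak of 16q. Of the 10, 9 were on long arms, which held 1058 of the 1898 subtelomeric peaks. Another count was of ends not among the 20 densest, where 4 of the 10 lay (7q, 11q, 12p and 13q). Those 20 held 75.6% of the subtelomeric peaks. With 10 peaks, neither count is read as a preference.

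The peaks that set the 39 ends were ordinary in strength. Their median score was 27.2, the range was 3.68 to 160.1, and 9 were below 10. They stood further from other peaks, with a median distance of 41752 bp to the nearest one, in part because an outermost peak has a neighbour on 1 side only.

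Subtelomeric peaks were wider by a small amount, most of which went with score. The median width was 470 bp (451 to 487) at the ends and 413 bp (409 to 418) elsewhere, and it was larger at the ends on 20 of 22 chromosomes. A width of at least 1 kb was reached by 9.54% (8.25 to 10.9%) and 6.65% (6.35 to 6.95%), with 6.84% over all autosomal peaks. Score and width are related in this list, so widths were also compared within 10 classes of autosomal peaks of equal size by score. With the other peaks weighted to the same classes, the medians were 470 and 458 bp. Subtelomeric medians differed from the others by 1 bp in the lowest 2 classes, at 234 against 235 bp and 244 against 245 bp. The gap was largest in the seventh class, at 630 bp (574 to 671) against 575 (563 to 588), where the intervals overlap.

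**Figure D4:**
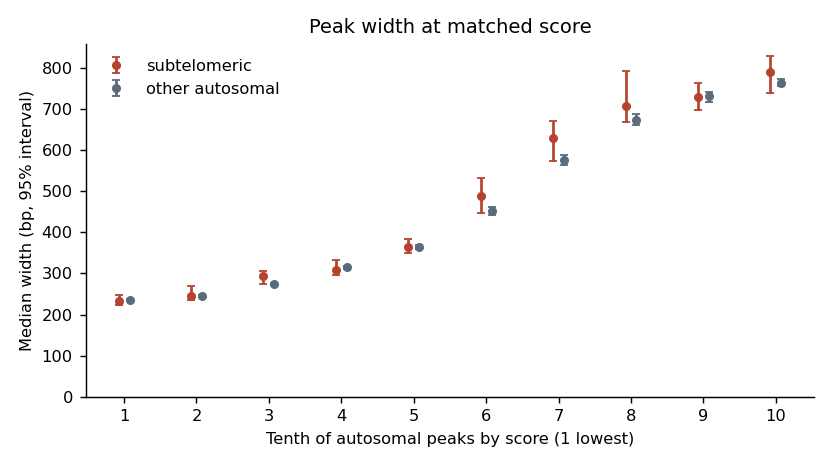
Median peak width in bp (vertical axis, order-statistic 95% intervals) in 10 classes of autosomal peaks by score, from the lowest to the highest, for subtelomeric (red) and other (grey) peaks. Both sets climb from about 235 bp in the lowest class to 791 and 764 bp in the highest, and the largest gap is 630 against 575 bp in the seventh class.

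The widest subtelomeric peaks were of moderate score. The first, 2153 bp at 8q from 145016233 to 145018385, scored 77.6. It was followed by 1846 bp at 8q from 145733520 (47.8), 1757 bp at 11p from 694636 (45.3), 1690 bp at 8q from 145158388 (59.5) and 1632 bp at 21q from 47743300. Only the last, with a score of 191.1, was in the top 10%. Of the 5, 3 came from 8q, where the median width was 620 bp, the largest among the 39 ends.

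Peaks at the ends lay closer together. The median distance to the nearest peak was 7776 bp (6997 to 8787) against 16880 bp (16435 to 17402), with quartiles of 1475 and 21016 bp against 4526 and 44802 bp. A neighbour within 1 kb was found for 22.3% (20.4 to 24.2%) and 16.9% (16.5 to 17.4%), with 17.3% over all autosomal peaks. The nearest peak was over 100 kb away for 2.79% (2.10 to 3.64%) and 9.28% (8.93 to 9.64%), with 8.84% over all. Runs of 3 or more peaks with gaps of at most 1 kb held 2.05% (1.47 to 2.80%) and 2.29% (2.11 to 2.48%), beside 2.27% over all. Near neighbours were thus mostly pairs in both sets. The share with a near neighbour was higher at the ends on 16 chromosomes and lower on 6.

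Ends differed in spacing, as 2q and 13q show, a pair picked after their values were seen. At 2q, 22 of 51 peaks (43.1%, 29.3 to 57.8%) had a neighbour within 1 kb and the median distance was 1887 bp. At 13q, 0 of 39 had one (0 to 9.03%), against 18.4% on the rest of chromosome 13, and the median distance was 21293 bp. A count of 3 at 13q would be a share of 7.69%. The closest pair, 77 bp apart, was at 19p from 892932 to 893504 (score 67.2) and from 893582 to 893781 (7.08).

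There were 12 runs of 3 or more, of which 3 had 4 peaks, the most at any end; the largest elsewhere had 6. Of the runs of 4, the one with the strongest member spanned 2810 bp at 18p from 108021 to 110830. Its scores were 126.6, 10.9, 25.7 and 18.2 in order of position, so the strongest peak was at the outer edge. Runs of 4 also lay at 20p from 304986 to 308162, with scores of 42.2, 78.7, 12.1 and 12.1, and at 17q from 80290060 to 80292019, with scores of 36.1, 6.59, 24.2 and 13.4. In each run of 4 at most 1 peak was in the top 10%. Whether such runs are separate sites or 1 enriched stretch cannot be told apart without signal or summits.

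How much closer the peaks lay than in equally dense DNA elsewhere depended on how the bins were drawn. Other peaks were weighted to the peak numbers of the 1 Mb bins that hold subtelomeric peaks. On a fixed grid, in which bins at the tips are cut short, the ends kept a closer spacing, with a near neighbour for 21.95 against 18.2% and a median distance of 8260 against 9341 bp. Median scores on the grid were 29.6 and 29.4, over 1781 of the 1898 peaks. With bins counted from the ends, a choice made after the data were seen, the match covered 1444 peaks, since the fullest bins had no equal elsewhere. The median distance was then 9757 bp at the ends and 9718 bp elsewhere, and a near neighbour was found for 20.98 and 20.3%. The median score was 27.7 at the ends and 29.04 elsewhere.

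The share of high scores was smaller at the ends than in the fullest bins elsewhere, by more than counting error. At matched bin number, counted from the ends, 9.35% of subtelomeric peaks and 11.9% of the others were in the top 10%. In bins of more than 40 peaks the shares were 9.58% (80 of 835, 7.67 to 11.8%) and 16.8% (198 of 1177, 14.7 to 19.1%), beside the background of 10%, and the intervals did not overlap. That class has no upper limit, so the number of peaks per bin was not matched within it. The fullest bins at the ends had no equal elsewhere. In each class of bins of up to 40 peaks the intervals overlapped. Other peaks rose in this share with the number of peaks in the bin, from 6.69% in bins of up to 5 to that 16.8%, whereas subtelomeric peaks stayed between 8.87 and 12.7% from 6 peaks up. No p-value was computed, and this pattern was chosen after its values were seen.

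The gap in bins of more than 40 peaks had the same direction on each of the 6 chromosomes that have such bins both at an end and elsewhere. On chromosome 16 the shares were 7.55% of 159 peaks at the ends and 19.7% of 152 elsewhere. On chromosome 17 they were 9.27% of 151 and 16.5% of 103, and on chromosome 19 they were 13.9% of 173 and 18.99% of 337. Chromosome 1 gave 6.45% of 62 and 15.1% of 53, and chromosome 11 gave 10.2% of 49 and 13.2% of 151. Chromosome 9 gave 1.92% of 52 (1 peak) and 4.88% of 41 (2 peaks). On chromosomes 1 and 9 each side held too few peaks for more than 1 such bin. No interval was computed per chromosome, the number of peaks per bin was not matched, and peaks of the same bin are not independent. The shared direction is therefore not replication. Over the 6 chromosomes the share was 9.29% at the ends against 16.6% elsewhere with the same weight per chromosome. Median scores in these bins were not lower at every end: on chromosome 1 the median was 42.5 at the end and 27.4 elsewhere, and on chromosome 19 both were near 39.9.

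**Figure D5:**
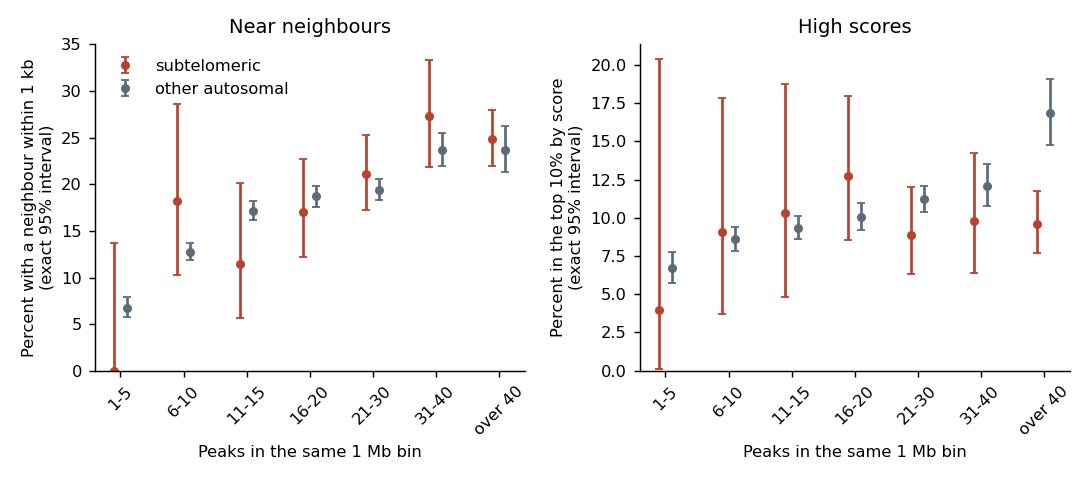
Percent of peaks with a neighbour within 1 kb (left) and in the top 10% by score (right) by the number of peaks in the same 1 Mb bin counted from the chromosome ends, for subtelomeric (red) and other (grey) peaks, with exact 95% intervals. The intervals for near neighbours overlap in each class of bins, while in bins of over 40 peaks the high scores are 9.58% at the ends and 16.8% elsewhere.

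Subtelomeric peaks made up a large part of the densest DNA. In fixed 1 Mb bins with at least 40 peaks, 732 of 2338 peaks were subtelomeric, which is 38.6% of the subtelomeric peaks and 31.3% (29.4 to 33.2%) of the peaks in such bins. Over all autosomal peaks, 8.32% were in bins of this kind.

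Score values shared by many peaks were more frequent at the ends. In the whole list 27 values, from 4.37 to 27.2, are each held by at least 25 peaks. Among peaks in that range, 23.1% (202 of 876, 20.3 to 25.99%) held one at the ends and 13.8% (13.3 to 14.4%) elsewhere, beside 14.4% over all. With the other peaks weighted to the same chromosomes, their share was 15.4%. The share was above that of the rest of the chromosome on 15 chromosomes and below it on 7.

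The share of repeated values varied between ends. Of 33 ends with at least 10 peaks in the range, 8 had a share of 40% or more. At 5p, 16 of 25 peaks (64%, 42.5 to 82.03%) held such a value, against 2 of 20 at 5q and 8.28% on the rest of chromosome 5. From 2 to 10 Mb from the same tip it was 3 of 15. At 21q the share was 48.1% (13 of 27), against 10.9% on the rest of chromosome 21, and at 11q it was 46.2% (6 of 13) against 10.2% on the rest of chromosome 11. At 12q it was 45.5% (5 of 11) against 10.2%, and at 10q it was 40% (10 of 25) against 14.9%. From 2 to 10 Mb from the tip of 10q it was 13 of 32 (40.6%), so the high share there was not limited to the end. Over the same stretch it was 5 of 69 at 21q, 2 of 37 at 11q and 3 of 27 at 12q. At 13q the share at the end was 66.7% (10 of 15) on a chromosome whose other peaks were at 48.2%. The ends of 18q (41.7%) and 18p (40%) were below the rest of chromosome 18, at 49.3%, so a high share there was not limited to the ends. How the caller set the background for these peaks is not stated in the sources used here, and its part in the scores at the ends was not tested.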

How the data were processed

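One peak list, of the E2F1 immunoprecipitation, was analysed, and no file of the input was used. Build hg19 and the tools CASAVA 1.6.0, MACS2 2.0.9 and Bowtie are named per the submitters' processing notes, while roles, settings, threshold and use of the input are not stated there. The score deposited by the authors is 1 number per peak on a scale that is not stated. The other deposited columns are position and name. The members and the lists of comparisons were chosen with earlier results of these data known.

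All values were computed with pandas 2.3.3, scipy 1.17.1 and numpy 2.4.6 under Python 3.11.15, and drawn with matplotlib 3.10.9. A chromosome's length was the extent between its outermost peaks, and distances between peaks from edge to edge. Intervals are at 95%: exact Poisson for densities, exact conditional binomial for ratios, Clopper-Pearson for shares and order-statistic for medians. No p-value was computed, since 1 library has no replicate. The density and spacing computations were tested on simulated peaks with planted ratios, of equal width and at random positions. Peaks that set the ends were left out of those simulated counts but kept in the main values. Named peaks and ends followed a rule: the 10 highest-scoring and 5 widest peaks, the 5 densest and 5 sparsest ends (6 with a tie), the 3 highest and 3 lowest ends by median score, the run with the most peaks and the 3 peaks on each side of the limit; other named sites were chosen after their values were seen. X, Y and mitochondrial peaks were left out of the comparisons. Gene order is from RefSeq, GRCh38.p14, for q ends only, and none of its positions were set against peaks. Sequences under the peaks were not analysed here, for want of a genome of build hg19. Alternatives were other windows, chromosome sets, score thresholds and matched comparison peaks.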

Additional observations from a re-analysis of the deposited data

Results flagged for a closer look

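Chromosomes X and Y were outside the comparisons, and their ends were singled out as signal in data not used there. The q end of X held 42 peaks in 2 Mb, or 21 per Mb (95% Poisson interval 15.1 to 28.4), against 3.63 (3.33 to 3.95) on the rest of X. Its median score was 45.5, against 27.6. The p end of X held 3 peaks, and the first peak of X began at 2847311, so the outermost 2.85 Mb of the short arm, which hold the pseudoautosomal region shared with Y, had none. On Y the q end held 6 peaks, with a median score of 16.4, and the p end held 1, from 2804093 to 2804299, again with no peak further out. The input's signal at these ends was not analysed here, and how reads from the shared region were placed is not stated in the sources used here.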

How the results depend on the processing

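Of 58 alternatives, 31 stayed within the 95% interval of their value, 24 left it and 3 reversed a difference whose interval lay on 1 side of no difference. The density ratio stayed above 1 in all of its alternatives. From 2.52 it went to 2.69 with windows of 1 Mb, 1.97 with 5 Mb and 2.89 among the top 50% of peaks by score. It was 2.28 without chromosomes 16, 17, 19 and 22 and 2.16 as the median over chromosomes. With windows at the first peaks of the acrocentric chromosomes also counted, which need not be near a tip, it was 2.33. With lengths that omit stretches of over 1 Mb without a peak it was 2.13. It was 2.30 against the expectation from each chromosome and 2.08 without the 5 densest ends, both added after seeing the data. The difference in median score, 6.87, was 9.58 with 1 Mb, 4.37 as the median over chromosomes and 0.24 against equally full bins of a fixed grid. It reversed to -0.99 among the top 50% by score, a set without the weak peaks, and to -1.33 against equally full bins counted from the ends, which was also added after the data were seen. The difference in the top 10% share, -0.27 percentage points with an interval that spans 0, had no stable sign. It was 0.58 with 1 Mb, 0.20 without chromosomes 16, 17, 19 and 22 and 0.26 as the median over chromosomes. It was -3.07 among the top 50% by score and -2.56 and -2.58 against equally full bins on the grid and from the ends. The difference in median width, 57 bp, was 13 bp among the top 50% by score and 12 bp at matched score. The difference in near neighbours, 5.35 percentage points, was 7.99 with 1 Mb, 1.13 among the top 50% by score, 11.8 for neighbours within 5 kb and 0.72 against equally full bins from the ends. The ratio of median distances, 0.461, was 0.523 with 5 Mb, 0.522 as the median over chromosomes, 0.884 against equally full grid bins and reversed to 1.004 against equally full bins from the ends. Causes were not tested beyond what these constructions show. No paired analysis was possible because the peaks come from 1 library, and no replicate could be left out for the same reason. Without read counts, the limit that depth sets is unknown.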
